A study of Mus musculus with 12 samples.

Results

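The respiratory chain of the inner mitochondrial membrane is built from subunits made in the cytosol and subunits made inside the organelle. The genes described here are the nuclear-encoded subunits of complexes I, III, IV and V, chosen by their symbols (names of the Nduf, Uqcr, Cyc1, Cox4 to Cox8 and Atp5 series among protein-coding genes, with pseudogenes left out). The pattern found 81 of the 53707 genes in the table, of which 36 belonged to complex I, 9 to complex III, 18 to complex IV and 18 to complex V. The choice used names and no measured value. Cox7a2l, a supercomplex assembly factor, and Atp5s, which is not a subunit of the enzyme, came in through their names, and Ndufa4, named for complex I, is now regarded as a complex IV protein. The pattern missed the complex I gene Ndufab1, so that the 36 are not a complete set. Atp5o had 2 rows, and the second (ENSMUSG00000116933) overlaps both Donson and the main Atp5o gene on the same strand.

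RNA was measured in retinal explants, whole retinas kept alive in culture, to ask how the glucose supply affects gene expression. The retinas came from wild-type C57BL/6J mice at postnatal day 28, were freed of sclera and pigment epithelium, and were cultured for 48 hours in Neurobasal-A with 5 mM or 25 mM glucose. Each group held 3 biological replicates with 2 technical replicates each, 12 libraries in all, and the first and second technical replicates were batches 1 and 2. The labels do not say whether a replicate is 1 retina or a pool, and age, strain and culture time were shared by both groups. Library totals lay between 14815285 and 36692484 estimated counts, and technical replicates were summed to totals of 37944826 to 60098862 per biological replicate. Levels are given as CPM, counts scaled to library size with TMM factors, and differences as the log2 fold change of 25 mM against 5 mM glucose with its standard error (SE). Replicate 1 at 5 mM and replicate 2 at 25 mM stood apart from the others in the level of GC-rich genes. The number of genes called is given with and without them, and single genes mostly with all 6 replicates. Gnat1, the rod transducin subunit, was abundant, at 1014 CPM on average at 5 mM and 1384 at 25 mM. The 4 cone markers together reached 20.55 to 22.79 CPM at 5 mM and 27.92 to 44.37 CPM at 25 mM. Rpe65 of the pigment epithelium was at 0.0267 and 0.0575 CPM on average at 5 mM and 25 mM.

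Complex I takes electrons from NADH and complex III from ubiquinol, cytochrome c carries them to complex IV, which reduces oxygen, and complex V uses the resulting proton gradient to make ATP. Photoreceptors hold dense mitochondria in their inner segments, and the retina also turns much of its glucose into lactate in the presence of oxygen. Most accessory subunits exist as a single gene, whereas some complex IV subunits and the membrane ring of complex V have alternative genes that are known from muscle, lung, testis or other tissues.

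Of the 81 genes, 78 passed the filter on low counts. None of the 78 passed an FDR under 0.05 in edgeR's quasi-likelihood test over 21061 genes, where 1.98% of all genes tested did. The lowest FDR of a subunit gene was 0.0581, for Cox6a2. At an unadjusted p under 0.05 there were 9 of 78 (11.5%), all lower at 25 mM, against 28.7% of all genes in both directions and 15.5% in the lower direction. DESeq2 called 1 of the 78, Cox6a2, against 16.6% of all genes, and limma-voom called 0, against 1.98%. The 3 replicates of the groups did not overlap for 13 genes (16.7%), all of them lower at 25 mM, against 15.8% of all genes, and 0 genes were higher without overlap, against 16% of all genes. The first of these shares lay near that of genes in general.

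The direction was shared more widely than the calls. The log2 fold change was below 0 for 64 of 78 subunit genes (82.1%), against 50.7% of all genes tested, and its median was -0.27 against -0.01. By complex the median was -0.21 for complex I (27 of 36 below 0), -0.33 for complex III (8 of 9), -0.49 for complex IV (14 of 15) and -0.19 for complex V (15 of 18). For 55 of the 78 the estimate lay within 0.5 of 0. The median SE of a subunit gene was 0.22. These are descriptions of lists, and the difference between the lists and other genes was not tested. In whole tissue, fewer cells of a type and less RNA per cell cannot be told apart.

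**Figure D1:**
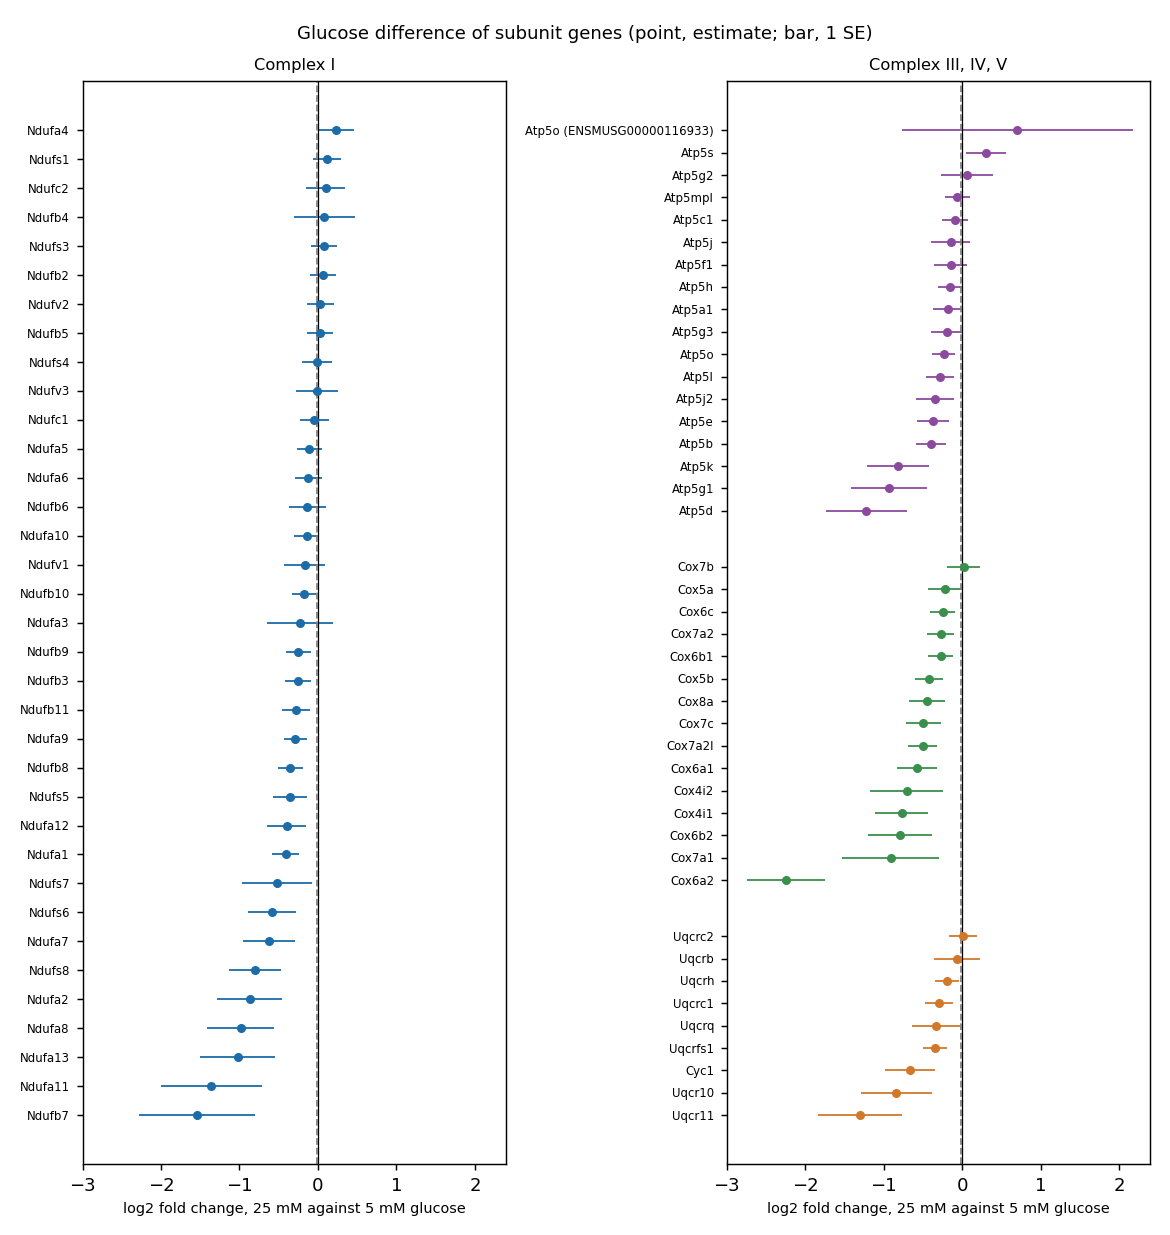
Log2 fold change of 25 mM against 5 mM glucose (x axis) for 77 of the 78 subunit genes tested (y axis), with points for the estimate and bars for 1 SE. The dashed line is the median of all genes tested (-0.01), and 64 of the points lie below 0.

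The summed level of all 81 genes was 6870, 7022 and 6983 CPM in the 5 mM replicates and 5500, 6288 and 6188 CPM in the 25 mM replicates. The groups did not overlap in this sum, and the mean was 6958 ± 79.0 CPM (SD, n = 3) at 5 mM and 5992 ± 429 CPM at 25 mM. Complex V made the largest part, with 3064, 3056 and 3007 CPM at 5 mM and 2310, 2684 and 2615 CPM at 25 mM. Complex IV had sums of 886, 1071 and 1060 CPM at 5 mM and 699, 795 and 863 CPM at 25 mM, again without overlap. The complex I sums also did not overlap (1993 to 2072 CPM against 1804 to 1974 CPM), whereas those of complex III did (823 to 927 CPM against 686 to 834 CPM). As a share of all counts before scaling, the 81 genes held 0.633%, 0.722% and 0.694% at 5 mM and 0.58%, 0.605% and 0.645% at 25 mM, so that the groups overlapped on that scale.

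Levels can be compared between genes only per length of transcript. On the scale of CPM per kb, averaged over both groups, the median of the 78 genes was 71.4, with 24 genes over 100 and 7 under 10. The complex medians were 61 for complex I, 51.3 for complex III, 98.7 for complex IV and 115 for complex V. The highest gene was Atp5b, the catalytic beta subunit of ATP synthase, at 450 CPM per kb, followed by Ndufa4 at 445 and Atp5mpl, a small membrane subunit of complex V, at 424. Uqcrb and Uqcrh, supporting subunits of complex III, followed at 333 and 283. The same 10 genes were highest when the longest coding transcript served as the length. The lowest genes tested were Cox6a2 (0.692), the second Atp5o row (0.823) and Cox7a1 (1.29).

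The differences among the subunit genes went with base composition. The GC content of their transcripts ran from 40.6% to 61%, and the genes were divided by it into 3 equal parts of 26, a division chosen after the values were seen. The 26 genes richest in GC had a median log2 fold change of -0.69 and all lay below 0. The middle part had a median of -0.23 and the part poorest in GC one of -0.08, with 17 of 26 below 0. Genes of the same GC ranges among all genes tested had medians of -0.44, -0.13 and 0.13. Across the 78 genes Pearson's r of the log2 fold change with GC content was -0.597 and Spearman's rho was -0.669, as a description of genes that share the same libraries, and across 20301 genes tested r was -0.394. The correlation with the logarithm of transcript length was 0.0782 across the 78 genes. Their transcripts were short, with a median length of 691.5 bases against 2545 for all genes tested. A correlation within the 78 therefore does not compare short genes with longer ones.

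The coding sequences show the contrast within each complex. The first 90 coding bases are printed here for the gene with the highest and then the gene with the lowest GC content among the tested genes of complexes I, III, IV and V, with Atp5s left aside, from the coding transcript with the most counts in GENCODE M21. Capitals mark a G or C at the last base of a codon.
Ndufa13: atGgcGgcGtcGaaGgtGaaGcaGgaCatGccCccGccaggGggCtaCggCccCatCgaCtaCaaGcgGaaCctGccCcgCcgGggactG
Ndufa4: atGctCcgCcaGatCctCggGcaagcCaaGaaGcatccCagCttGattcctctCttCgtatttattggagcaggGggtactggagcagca
Uqcr11: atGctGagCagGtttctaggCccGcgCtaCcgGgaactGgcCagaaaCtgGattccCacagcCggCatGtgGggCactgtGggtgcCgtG
Uqcrb: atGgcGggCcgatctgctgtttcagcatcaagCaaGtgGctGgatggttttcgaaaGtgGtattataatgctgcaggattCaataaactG
Cox6a1: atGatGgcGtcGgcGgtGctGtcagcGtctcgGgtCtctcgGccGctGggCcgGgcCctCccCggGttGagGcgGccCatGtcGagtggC
Cox7b: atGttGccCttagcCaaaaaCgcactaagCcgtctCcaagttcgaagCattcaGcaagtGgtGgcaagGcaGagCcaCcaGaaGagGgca
Atp5d: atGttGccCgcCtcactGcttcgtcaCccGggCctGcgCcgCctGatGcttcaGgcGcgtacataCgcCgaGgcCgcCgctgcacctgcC
Atp5mpl: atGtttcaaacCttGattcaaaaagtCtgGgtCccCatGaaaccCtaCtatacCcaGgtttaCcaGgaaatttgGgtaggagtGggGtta
Of the 30 codons shown, 28 end in G or C in Ndufa13 (chr8:69894180-69902558, minus strand of GRCm38) and 16 in Ndufa4 (chr6:11900292-11907497, minus strand). The counts were 22 in Uqcr11 (chr10:80402997-80406830, minus strand) and 11 in Uqcrb (chr13:66900617-66905378, minus strand). In complex IV they were 26 in Cox6a1 (chr5:115345642-115348981, minus strand) and 18 in Cox7b (chrX:106015700-106022450, plus strand). In complex V they were 21 in Atp5d (chr10:80138632-80145818, plus strand) and 17 in Atp5mpl (chr12:111961375-111966977, minus strand). Over whole coding sequences the share of codons ending in G or C ran from 36.2% to 85.4% among the 81 genes, and its correlation with the log2 fold change over the 78 tested was -0.584.

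Replicates of the same group differed along the same axis. All 26 genes of the GC-rich part were lowest in replicate 1 among the 5 mM replicates, and 20 of 26 were lowest in replicate 2 among the 25 mM replicates. Of the 26 GC-poor genes, 21 were highest in replicate 1 at 5 mM and 22 were highest in replicate 2 at 25 mM. The summed level of the GC-rich part was 633, 1210 and 1100 CPM at 5 mM and 683, 577 and 782 CPM at 25 mM, so that replicate 1 at 5 mM lay inside the range of the 25 mM replicates. The GC-poor part summed to 3302, 2471 and 2659 CPM at 5 mM and 2407, 3067 and 2584 CPM at 25 mM. Across all genes tested, the level relative to the mean of the 6 replicates had an r with GC content of -0.451 in replicate 1 and 0.612 and 0.472 in replicates 2 and 3 at 5 mM, and of -0.197, -0.594 and 0.011 at 25 mM.

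**Figure D2:**
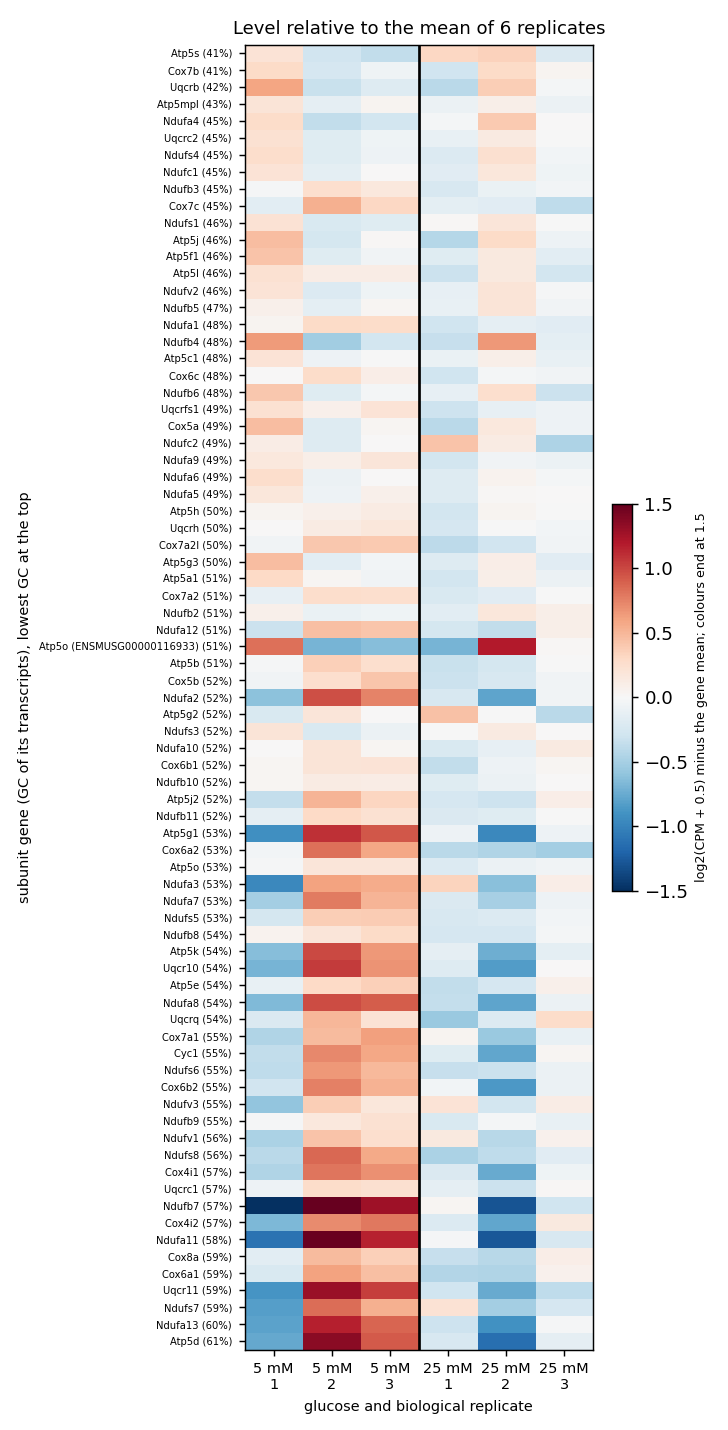
Level of 77 of the 78 genes (rows, ordered by GC content from 41% at the top to 61% at the bottom) in the 6 biological replicates (columns), as log2(CPM + 0.5) minus the mean of the gene. Replicate 1 at 5 mM and replicate 2 at 25 mM are low in the GC-rich rows at the bottom, and replicates 2 and 3 at 5 mM are high there.

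The number of calls depended on replicate 1 at 5 mM, among all genes tested as among the subunit genes. Without it, 24 of 78 subunit genes (30.8%) passed an FDR under 0.05, all lower at 25 mM, against 26.6% of all genes tested, and 16 of the 24 belonged to the GC-rich part. With all replicates 1.98% of all genes tested passed, and the share of 30.8% lay near that of genes in general. Without that replicate the median of the 78 was -0.33. Among the 24 were Ndufb7 (-2.051), Ndufa11 (-1.828), Uqcr11 (-1.743), Atp5d (-1.635), Atp5g1 (-1.341), Cox4i1 (-1.075) and Cyc1 (-0.937). Their FDR values ran from 0.0108 to 0.0282. Without both replicate 1 at 5 mM and replicate 2 at 25 mM, 5 of 77 genes passed, all lower, against 1.71% of all genes, and the median was -0.34. With each of the other 5 replicates left out alone, 0 subunit genes passed, against 2.27% of all genes without replicate 3 at 25 mM and 0% in the other 4 cases.

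Adjusting for GC content and length, with a trend fitted in each replicate over all genes, reduced the common direction. The median of the subunit genes became 0.00, with 39 below and 39 above 0. The median of all genes became 0.10, with 8886 of 21061 below 0. Relative to the median of all genes, that of the subunit genes went from -0.26 to -0.10. The complex medians became 0.09, -0.10, -0.11 and -0.01 for complexes I, III, IV and V. With the correction 2 of the 78 passed an FDR under 0.05, against 13.5% of all genes. Cox6a2 was one of them (log2 fold change -1.80, FDR 0.0373). With correction for GC content alone the median was -0.05 and 3 genes passed, against 13.1% of all genes, among them Cox6a2 (lower) and Ndufv3 (higher). With length alone the median was -0.01 and 0 passed, against 2.97% of all genes. The correction would also remove a glucose difference that follows GC content, and how much of the common direction is of that kind was not tested.

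**Figure D3:**
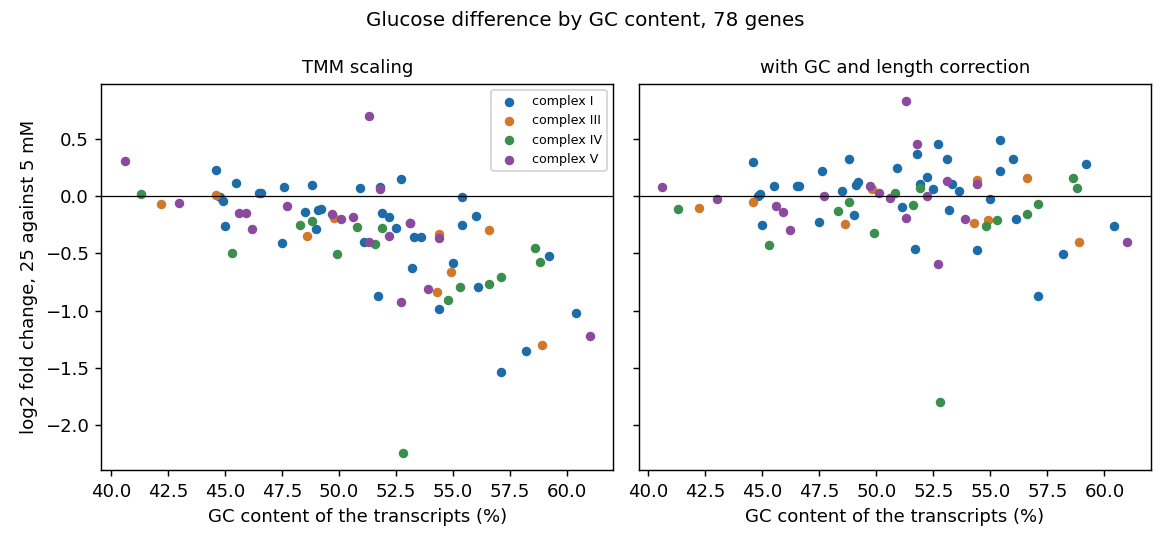
Log2 fold change of 25 mM against 5 mM glucose (y axis) against the GC content of the transcripts in percent (x axis) for 78 genes coloured by complex, with TMM scaling (left) and with the correction for GC content and length (right). Pearson's r is -0.597 on the left and -0.0928 on the right, and Cox6a2 is the lowest point in both panels.

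In complex I, the core subunits Ndufs1 and Ndufv1 had estimates near 0. Ndufs1, which holds iron-sulfur clusters, had 208, 152 and 157 CPM at 5 mM and 181, 203 and 177 CPM at 25 mM (log2 fold change 0.12, SE 0.18). Ndufv1, which binds NADH, had 32.1, 60.1 and 53.6 CPM at 5 mM and 49.5, 33.4 and 46.6 CPM at 25 mM (-0.17, SE 0.27). The groups overlapped for both, and the low Ndufv1 values were those of replicate 1 at 5 mM and replicate 2 at 25 mM.

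The largest differences of complex I were in small accessory subunits. Ndufb7 had 4.41, 49.7 and 33.7 CPM at 5 mM and 13.9, 5.26 and 11.03 CPM at 25 mM (-1.54, SE 0.74, FDR 0.206), and Ndufa11 had 3.36, 22.8 and 17.9 CPM at 5 mM and 7.70, 2.93 and 6.53 CPM at 25 mM (-1.36, SE 0.65, FDR 0.204). Replicate 1 at 5 mM lay below all 3 of the 25 mM replicates for Ndufb7 and below 2 of 3 for Ndufa11, and the range of the 5 mM replicates exceeded the difference between the group means for both. Ndufa4 had the highest estimate of the complex I names, with 266, 170 and 181 CPM at 5 mM and 215, 289 and 220 CPM at 25 mM (0.23, SE 0.22). The replicates that were low in Ndufb7 were the high ones in Ndufa4. Of the 36 complex I genes, 6 did not overlap between the groups, all lower at 25 mM. Among all genes tested, 15.8% were lower without overlap. Of the 6, Ndufb8 had 58.1, 63.5 and 68.7 CPM at 5 mM and 47.1, 47.1 and 54.7 CPM at 25 mM (-0.35, SE 0.16, FDR 0.185), and Ndufa9 had 110, 105 and 112 CPM and then 80.9, 94.4 and 92.2 CPM (-0.29, SE 0.15). The other 4 were Ndufa1, Ndufb3, Ndufb9 and Ndufb10, with estimates between -0.41 and -0.18. These 6 are named for lacking overlap, which was seen in their values.

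In complex III, Uqcrfs1, the Rieske iron-sulfur protein, had 81.3, 73.3 and 79.9 CPM at 5 mM and 55.5, 63.7 and 65.5 CPM at 25 mM (-0.35, SE 0.15, FDR 0.18). The groups did not overlap, and the correction left an estimate of -0.24. Cyc1, the cytochrome c1 heme protein, had 35.4, 76.1 and 69.1 CPM at 5 mM and 40.6, 26.5 and 46.7 CPM at 25 mM (-0.67, SE 0.32), with replicate 1 at 5 mM inside the range of the 25 mM group. Uqcrc1, a core protein, had 58.8, 75.2 and 73.4 CPM at 5 mM and 56.5, 49.5 and 62.7 CPM at 25 mM (-0.30, SE 0.18). Its partner core protein Uqcrc2 had 315, 237 and 257 CPM and then 250, 296 and 268 CPM (0.01, SE 0.18). The small subunits Uqcr11 (-1.30, SE 0.53) and Uqcr10 (-0.84, SE 0.45) had the lowest estimates of the complex. Uqcr11 had 3.07, 15.6 and 13.0 CPM at 5 mM and 4.85, 3.42 and 4.57 CPM at 25 mM. Uqcrb had 260, 136 and 151 CPM at 5 mM and 130, 224 and 169 CPM at 25 mM (-0.07, SE 0.30), so that replicate 1 at 5 mM was the lowest of the 6 in Uqcr11 and the highest in Uqcrb.

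In complex IV the ubiquitous subunits carried most of the expression. Cox4i1, which helps to regulate the enzyme, had 52.8, 127 and 117 CPM at 5 mM and 62.0, 42.6 and 68.9 CPM at 25 mM (-0.77, SE 0.33, FDR 0.171). Cox5a had 145, 91.6 and 107 CPM at 5 mM and 79.2, 117 and 99.3 CPM at 25 mM (-0.22, SE 0.22), and Cox5b, which binds zinc, had 57.1, 70.9 and 79.1 CPM and then 47.3, 50.1 and 57.3 CPM (-0.42, SE 0.18, FDR 0.17). For Cox5b the lowest 5 mM value and the highest 25 mM value were nearly the same. Cox7a2l had 94.5, 129 and 129 CPM at 5 mM and 74.3, 79.8 and 94.0 CPM at 25 mM (-0.50, SE 0.19, FDR 0.127), without overlap, and Cox6b1 had 109, 123 and 123 CPM and then 82.6, 101 and 109 CPM (-0.28, SE 0.16). Cox7b, the poorest in GC of the 15 complex IV genes tested, was the only one of them with an estimate above 0 (0.02, SE 0.21). Its sign changed with the corrections that use GC content, with sums of transcript counts and in batch 2 alone.

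The alternative genes of complex IV were expressed at low levels. Cox6a2, known as the heart and skeletal muscle form of subunit VIa, had 0.379, 1.11 and 0.851 CPM at 5 mM and 0.185, 0.164 and 0.136 CPM at 25 mM, without overlap (-2.24, SE 0.50, FDR 0.0581). A count of 3 corresponds to 0.0499 to 0.0791 CPM in these replicates, so its 25 mM values rest on few reads, and its exons overlap Itgad on the opposite strand. The estimate was -1.80 with the correction, and -2.58 without replicate 1 at 5 mM (FDR 0.0122). The ubiquitous Cox6a1 had 39.8, 71.4 and 64.1 CPM at 5 mM and 34.4, 34.2 and 49.0 CPM at 25 mM (-0.57, SE 0.26, FDR 0.184), and its estimate was 0.07 with the correction.

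Cox4i2, known from lung and from pericytes of small vessels, had 2.73, 7.90 and 8.40 CPM at 5 mM and 3.94, 2.49 and 5.18 CPM at 25 mM (-0.71, SE 0.46). Cox7a1, known from heart and skeletal muscle, had 0.217, 0.860 and 1.00 CPM and then 0.510, 0.164 and 0.407 CPM (-0.91, SE 0.62). The groups overlapped for both. Beside these values, all 5 vascular markers had estimates below 0, with 0 called. Of the 5, 1 was near 0 (-0.03) and 4 were below -1, down to -2.46. With the correction 4 were below 0 and 1 above. Their summed level was 629 to 1304 CPM at 5 mM and 296 to 526 CPM at 25 mM, with none of the 5 at 0 CPM. The part of the vascular cells in the Cox4i2, Cox7a1 and Cox6a2 values was not tested. Cox6b2, known from testis, had 2.26, 5.18 and 4.30 CPM at 5 mM and 2.76, 1.34 and 2.65 CPM at 25 mM (-0.79, SE 0.41), and Cox7a2 had 71.0, 93.3 and 92.7 CPM and then 66.4, 69.2 and 77.6 CPM (-0.27, SE 0.17). Cox8a had 71.8, 112 and 103 CPM at 5 mM and 62.9, 60.1 and 86.5 CPM at 25 mM (-0.45, SE 0.23). The 3 genes that did not pass the filter were Cox7b2, at 0 to 0.164 CPM, Cox8b, at 0 in 5 of 6 replicates, and Cox8c, at 0 in all 6, which allows up to 0.0791 CPM in the shallowest replicate by counting error alone.

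**Figure D4:**
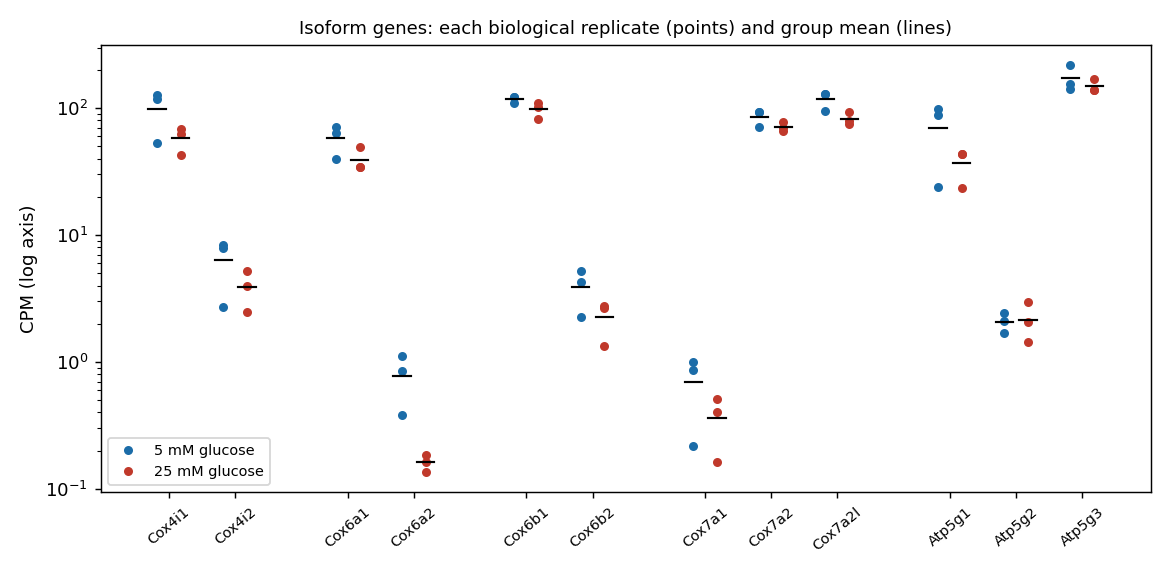
Level in CPM (log y axis) of alternative genes for the same subunit (x axis) in each biological replicate at 5 mM (blue points) and 25 mM glucose (red points), with lines for the group means. Cox4i1, Cox6a1, Cox6b1 and Cox7a2 lie above their low-level alternatives in every replicate, and Cox6a2 is at 0.136 to 0.185 CPM at 25 mM.

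In complex V the catalytic subunits Atp5b and Atp5a1 had estimates of -0.40 and -0.18, beside a median of -0.19 for the complex. Atp5b had 810, 1054 and 978 CPM at 5 mM and 653, 685 and 816 CPM at 25 mM (-0.40, SE 0.19, FDR 0.21), and the lowest 5 mM value lay just under the highest 25 mM value. Atp5a1, the alpha subunit, had 553, 460 and 433 CPM at 5 mM and 373, 478 and 423 CPM at 25 mM (-0.18, SE 0.18). Atp5c1, the gamma subunit of the central stalk, had 251, 205 and 216 CPM at 5 mM and 203, 230 and 200 CPM at 25 mM (-0.09, SE 0.16). The delta subunit Atp5d, with the highest GC content of all 78 genes, had 9.14, 41.5 and 30.7 CPM at 5 mM and 13.4, 7.01 and 14.5 CPM at 25 mM (-1.22, SE 0.52, FDR 0.165). Its lowest values were again in replicate 1 at 5 mM and replicate 2 at 25 mM. The highest estimates were those of the second Atp5o row (0.70, SE 1.47), which had 0 CPM in 2 replicates and at most 1.34, and of Atp5s (0.31, SE 0.26).

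The subunit c ring of complex V is encoded by 3 genes that give the same mature protein. Atp5g3 had 219, 141 and 154 CPM at 5 mM and 138, 170 and 140 CPM at 25 mM (-0.20, SE 0.21), Atp5g1 had 23.99, 98.5 and 88.4 CPM and then 43.7, 23.3 and 43.7 CPM (-0.93, SE 0.49), and Atp5g2 had 1.45 to 2.97 CPM over all 6 replicates (0.06, SE 0.34). The share of Atp5g1 in the CPM of the 3 genes was 9.82%, 40.7% and 36.2% at 5 mM and 23.6%, 12% and 23.6% at 25 mM. Between replicates of 5 mM glucose that share thus moved more than between the groups.

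The libraries were made from total RNA, and part of the counts of these genes was assigned to transcripts without a complete reading frame. Coding transcripts held 76.7%, 84.7% and 82.8% of the counts of the subunit genes at 5 mM and 78.5%, 75.1% and 78.6% at 25 mM, and retained-intron transcripts 9.48%, 5.77% and 6.9% and then 9.49%, 10.5% and 8.97%. The coding share was over 90% at 5 mM for 45 of 78 genes and under 50% for 13. With the counts of each group pooled, it was lower at 25 mM for 48 genes and higher for 7. The pooled shares carry no spread between replicates, and the same share over all genes was not computed. Over the subunit genes together, the replicates of the groups overlapped in both shares. For Ndufb7 the coding share was 69.4% at 5 mM and 34% at 25 mM. For Ndufb4 retained-intron transcripts held 86.8% of all counts, and its processed pseudogene Ndufb4c, which is not among the 81, had more counts than the gene itself (5590 counts in all against 4147). Reads that match both copies cannot be told apart here.

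Rows of related genes outside the 81 gave background for the counts. The row Ndufb1-ps, annotated as a non-coding RNA, held 22259 counts (log2 fold change 0.09, SE 0.27), whereas the other pseudogene rows (Uqcrh-ps1, Uqcrh-ps2, Atp5l-ps1, Atp5l-ps2, Atp5k-ps2, Atp5c1-ps, Cox6c2, Ndufa11b and Ndufs6b) held between 0 and 11.8 counts each. Exons of 25 of the 81 genes overlap another gene on the opposite strand and those of 6 on the same strand, and counting by strand is not given in the sources used here.

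Promoters were searched for the motifs of factors known to control respiratory genes. RefSeq promoters of GRCm38.p6, 250 bases before to 50 after the gene start, were matched by symbol for 63 genes. The NRF1 core GCATGCGC was found on either strand in 9 of the 63 (14.3%), against 3.05% of 27025 symbols, the YY1 core AAGATGGCG in 7 (11.1% against 1.64%), the ETS core ACTTCCGG in 5 (7.94% against 4.31%), the ERR core TCAAGGTCA in 1 (1.59% against 0.466%) and the E-box CACGTG in 5 (7.94% against 8.09%). The genes with the NRF1 core were Atp5g2, Atp5k, Atp5l, Cox6a1, Ndufa6, Ndufa8, Ndufa11, Uqcr11 and Uqcrc1. Their median log2 fold change was -0.57 against -0.27 for the others with a promoter, their median transcript GC content was 54.4% against 51.5%, and with the correction the medians were -0.20 and 0.02. The promoters of Uqcr11 and Ndufa8, among the lowest estimates in complexes III and I, are shown with the motifs in capitals.
Uqcr11: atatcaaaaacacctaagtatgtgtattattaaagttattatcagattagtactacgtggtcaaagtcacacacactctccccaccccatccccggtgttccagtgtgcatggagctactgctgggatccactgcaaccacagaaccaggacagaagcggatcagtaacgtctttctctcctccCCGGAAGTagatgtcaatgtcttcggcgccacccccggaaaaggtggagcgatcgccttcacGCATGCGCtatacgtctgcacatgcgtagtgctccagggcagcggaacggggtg
Ndufa8: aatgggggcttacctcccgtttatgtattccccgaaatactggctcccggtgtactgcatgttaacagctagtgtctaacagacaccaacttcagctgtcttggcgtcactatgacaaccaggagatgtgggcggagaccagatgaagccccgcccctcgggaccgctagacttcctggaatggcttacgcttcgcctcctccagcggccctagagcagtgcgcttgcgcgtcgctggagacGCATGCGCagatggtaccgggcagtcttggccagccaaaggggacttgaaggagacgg
In Uqcr11 (chr10:80406772-80407071, minus strand) the capitals mark the ETS core in reverse, beginning 66 bases before the start, and the NRF1 core, beginning 4 bases before it. In Ndufa8 (chr2:36049289-36049588, minus strand) they mark the NRF1 core, beginning 8 bases before the start. A match of letters is not evidence of binding. No promoter was in the table for Atp5a1, Atp5f1, Atp5mpl, Atp5s, Cox4i1, Cox4i2, Cox6a2, Cox6c, Cox8c, Cyc1, Ndufa2, Ndufb9, Ndufs1, Uqcrb, Uqcrc2 and Uqcrq.

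The mitochondrially encoded subunits, made inside the organelle for the same complexes, had estimates on the other side of 0. All 13 were above 0, with a median of 0.29 and 0 called, and their GC content had a median of 37.1%. Their summed level was 99514, 54363 and 71577 CPM at 5 mM and 81402, 119928 and 67192 CPM at 25 mM, and the groups overlapped. The ratio of this sum to that of the 81 nuclear genes was 14.5, 7.74 and 10.2 at 5 mM and 14.8, 19.1 and 10.9 at 25 mM, highest within each group in the replicates that were low in GC-rich genes. With the correction the median of the 13 was -0.12.

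Other genes of respiration from lists chosen for their function gave the following counts, with 0 genes at an FDR under 0.05 in each list before the correction. Complex II subunits had a median of -0.42 (3 of 4 below 0). A list of other electron transfer proteins, which also held Ndufab1 (-0.05, SE 0.21), had a median of -0.45 (9 of 9 below 0), among them Gpd2 (-0.98, SE 0.27, FDR 0.0742). Inner membrane carriers and cristae proteins had a median of -0.33 (7 of 8), among them the ATP carrier Slc25a5 (-0.64, SE 0.17, FDR 0.0732). Assembly factors had medians of 0.14 for complex I (10 of 15 above 0), 0.10 for complex III (5 of 6 above 0), -0.03 for complex IV (12 of 19 below 0) and -0.17 for complex V (3 of 4 below 0). Regulators of respiratory genes had a median of 0.04, with Ppargc1a, a coactivator of mitochondrial biogenesis, at 25.6 CPM on average at 5 mM and 49.6 CPM at 25 mM (0.95, SE 0.25, FDR 0.0711). Cytosolic ribosomal proteins, other short and abundant genes, had a median of -0.66 (78 of 80 below 0). Their median with the correction for GC content and length was -0.44, again with 78 of 80 below 0. Of the 80, 7 then passed an FDR under 0.05, against 13.5% of all genes. With the correction for GC content and length, 9 of the 94 genes tested in these lists and the mitochondrial one, ribosomal proteins left aside, passed an FDR under 0.05 (9.57%, against the 13.5% of all genes). Lower at 25 mM were Gpd2 (-0.97), Slc25a5 (-0.53) and mt-Nd3 (-0.44, where the uncorrected estimate was 0.13). Higher were the assembly factors Ndufaf5 (0.68), Ndufaf6 (0.90) and Ttc19 (0.61) and the regulators Ppargc1a (0.85), Ppargc1b (1.04) and Esrrb (1.19).

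The levels of cell type markers in the same libraries are given beside these results. All 6 rod markers had estimates above 0 and 3 of them passed an FDR under 0.05, with a summed level of 2349 to 4839 CPM at 5 mM and 4941 to 7083 CPM at 25 mM. All 4 microglial markers were below 0 (0 called), with sums of 75.4 to 168 CPM and 43.1 to 93.6 CPM. Bipolar markers summed to 1128 to 1221 CPM at 5 mM and 898 to 1006 CPM at 25 mM (3 of 4 below 0), amacrine markers to 383 to 454 CPM and 248 to 365 CPM (3 of 4 below 0), and Mueller glia markers to 1456 to 1734 CPM and 1172 to 1703 CPM (3 of 4 below 0), with 0 called in each of these 3 lists. None of the markers of these 5 types was at 0 in a group. Cone markers had 3 of 4 estimates above 0 (1 called) and ganglion cell markers 2 of 4 (0 called), and the summed levels of pigment epithelium markers (1.61 to 3.64 CPM) and globin genes (0.144 to 1.79 CPM) were low in all replicates. Their part in the levels of the subunit genes was not tested.

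The batches gave medians of the same sign and different size. In batch 1 alone the median of the subunit genes was -0.13 (51 of 76 below 0), and in batch 2 alone it was -0.35 (67 of 75 below 0), with 0 genes called in either, against 17.3% of all genes in batch 1 and 0% in batch 2. A term for the difference of the glucose effect between batches had an unadjusted p under 0.05 for 16 of 76 genes, against 16.3% of all genes, and a lowest FDR of 0.173. For complex I the medians were -0.05 in batch 1 and -0.33 in batch 2.

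**Figure D5:**
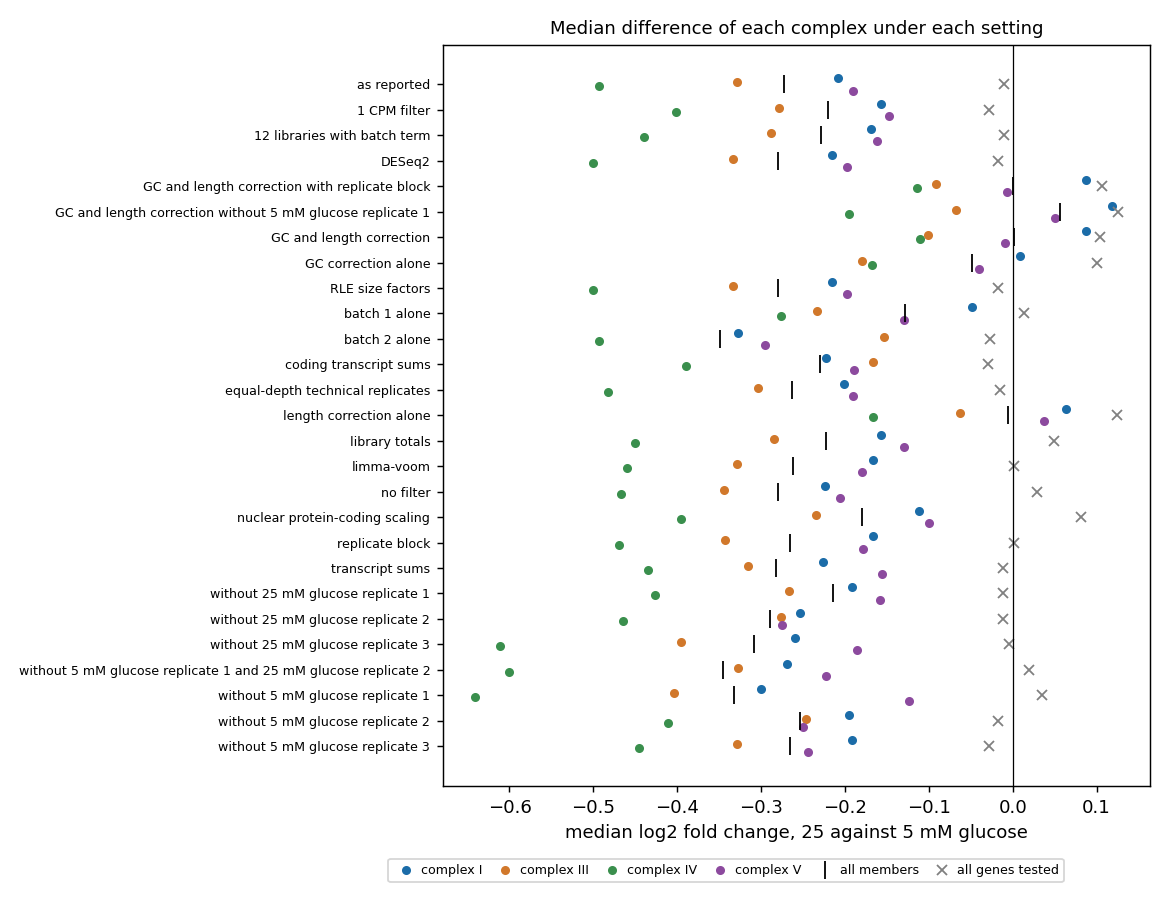
Median log2 fold change of 25 mM against 5 mM glucose (x axis) for complexes I, III, IV and V, for all subunit genes and for all genes tested, under each way of processing (y axis). The complex IV median stays below 0 in all of them, from -0.64 to -0.11, and the medians of all 4 complexes move toward 0 or past it with the corrections for GC content or length.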

How the data were processed

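The authors deposited expected counts (estimated counts) for the genes and transcripts of 12 libraries, not normalized between libraries. The labels name GRCm38; the counting tool and annotation are not given in the sources used here. Technical replicates were summed and rounded. Symbols, GC content and lengths came from GENCODE M21, which matched 90.8% of gene identifiers; 0 columns were left unused. The gene values are not plain sums of the transcript values (median ratio 0.996 for the subunit genes).

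Counts were filtered with filterByExpr, scaled with TMM and tested with the quasi-likelihood test of edgeR 4.0.16 (R 4.3.3) in a model of the glucose groups alone. P-values of 21061 genes were adjusted after Benjamini and Hochberg, with an FDR threshold of 0.05. The common biological coefficient of variation was 0.297. The correction for GC content and length fitted natural splines to each replicate across all genes and entered as offsets. Alternatives included DESeq2 1.42.0 and limma 3.58.1. The labels call the replicates biological and do not name separate animals, so p-values measure only the spread between these samples. Intervals from counts cover counting error only, since amplified reads are not independent molecules. Scripts were tested on simulated data. Tables and plots used Python 3.11.15, pandas 2.3.3, scipy 1.17.1 and matplotlib 3.10.9.

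The genes named with values are the 2 highest and 2 lowest estimates of each complex, core subunits, alternative genes of the same subunit, any gene called, and those not tested. Some genes that this rule or the marker lists name are not reported here. The members and lists were chosen with earlier results of these data known. Of the lists, Micos10, Micos13 and Tafazzin were not found by symbol. Proteins were not compared here.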

Additional observations from a re-analysis of the deposited data

Results flagged for a closer look

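Among 86 groups of 6 libraries examined (sums of each complex, library totals, shares and the genes with values in the text, by glucose concentration), 5 held a library that stood apart. Its gap to its nearest neighbour was a large part of the range of the group (Dixon's test at the 95% level). Chance would give about 4.3 if the libraries were independent. They are not, since each group holds 3 biological replicates with 2 technical replicates each, so 4.3 is only a rough guide. A biological replicate that stands apart in both of its libraries can escape this search. The first technical replicate of replicate 1 at 5 mM had the highest library total, 36692484 counts. In the second technical replicate of replicate 2 at 5 mM, Atp5g2 was at 3.26 CPM, above the other 5 mM libraries. In the first technical replicate of replicate 2 at 25 mM, mitochondrially encoded subunits held 14.8% of all counts and Atp5c1 was at 262 CPM, both the highest of their group. In the second technical replicate of the same sample, the second Atp5o row was at 2.01 CPM.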

How the results depend on the processing

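The count of called genes was 0 of 78 as reported and with RLE size factors, library totals, scaling to nuclear protein-coding genes, length alone, limma-voom, technical replicates at equal depth and both kinds of transcript sum. All genes called in these settings numbered from 54 of 15517 (coding transcript sums) to 626 of 21061 (length alone). The count of subunit genes was 0 of 75 with a filter of 1 CPM, 0 of 76 with 12 libraries and a batch term, 0 of 76 in batch 1 and 0 of 75 in batch 2, and Cox6a2 was not among the genes tested in these 4 settings. All genes called there numbered 444 of 16495, 2918 of 18725, 3279 of 18969 and 0 of 18811. The fit of 12 libraries treated technical replicates as separate samples. The count of subunit genes was 1 with DESeq2 and 1 without a filter (Cox6a2 in both), 2 with the correction for GC content and length, 3 with GC content alone and 8 with the correction but without replicate 1 at 5 mM (5 lower, 3 higher). All genes called in these 5 settings numbered 3489 of 21061, 1979 of 35141, 2846 of 21061, 2769 of 21061 and 3923 of 21945. As reported but at an FDR under 0.10 the count of subunit genes was 1, with no count over all genes given at that threshold. At an unadjusted p under 0.05 it was 9 of 78, against 28.7% of all genes. It ranged from 0 to 24 when replicates were left out, with 24 without replicate 1 at 5 mM. Over all genes the count was 417 of 21061 as reported and 0 to 5845 when replicates were left out, with 5845 of 21945 without replicate 1 at 5 mM.

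With the correction for GC content and length, the median was 0.001 for all subunit genes, 0.088 for complex I, -0.10 for complex III, -0.11 for complex IV and -0.009 for complex V. With that correction and a replicate block, the median was 0.000 for all subunit genes, 0.088 for complex I, -0.091 for complex III, -0.11 for complex IV and -0.007 for complex V. With that correction but without replicate 1 at 5 mM, the median was 0.056 for all subunit genes, 0.12 for complex I, -0.068 for complex III, -0.20 for complex IV and 0.050 for complex V. With GC content alone, the median was -0.049 for all subunit genes, 0.009 for complex I, -0.17 for complex IV and -0.040 for complex V. With length alone, the median was -0.006 for all subunit genes, 0.064 for complex I, -0.063 for complex III, -0.17 for complex IV and 0.037 for complex V. In batch 1 alone, the median was -0.13 for all subunit genes and -0.048 for complex I. In batch 2 alone, the median was -0.33 for complex I, -0.15 for complex III and -0.29 for complex V. With coding transcript sums, the median was -0.17 for complex III. With scaling to nuclear protein-coding genes, the median was -0.11 for complex I. In the other settings each of the 5 medians moved by less than 1 SD between replicates.

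The labels give no pairing of replicates between the groups. Same-numbered replicates had correlations of -0.0138, -0.449 and 0.285 in their deviations from the group mean. These values cannot decide whether samples were paired, because the deviations also follow GC content. With a replicate block the count was 0 of 78 and the median -0.27 (all genes 990 of 21061 called). With the block and the correction 1 of 78 was called (all genes 3294 of 21061). The best match of replicate 1 at 5 mM was replicate 2 at 25 mM (0.511), so that not every replicate correlated best with its own number.

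Of the 34 tested genes named by the rule, these changed sign. With the correction for GC content and length, the estimates were Uqcrc2 -0.054, Cox7b -0.11, Ndufv1 0.33, Uqcrc1 0.16, Cox6a1 0.074, Cox6b1 0.072, Cox7a2 0.025, Cox8a 0.16 and Atp5g3 0.029. With that correction and a replicate block, the estimates were Uqcrc2 -0.054, Cox7b -0.11, Ndufv1 0.32, Uqcrc1 0.19, Cox6a1 0.088, Cox6b1 0.075, Cox7a2 0.023, Cox8a 0.19 and Atp5g3 0.061. With that correction but without replicate 1 at 5 mM, the estimates were Uqcrb 0.070, Uqcrc2 -0.068, Cox5a 0.18, Cox7b -0.13, Ndufv1 0.35, Uqcrc1 0.39, Atp5a1 0.12, Atp5c1 0.055, Cox6a1 0.25, Cox6b1 0.17, Cox8a 0.41 and Atp5g3 0.32. With GC content alone, the estimates were Uqcrc2 -0.037, Cox7b -0.17, Ndufv1 0.31, Uqcrc1 0.15, Atp5a1 0.004 and Cox8a 0.081. With length alone, the estimates were Uqcrb 0.16, Cox5a 0.018, Ndufv1 0.078, Atp5c1 0.13, Cox6b1 0.001, Cox7a2 0.020 and Atp5g3 0.044. In batch 1 alone, the estimates were Ndufv1 0.082 and Atp5c1 0.024. In batch 2 alone, the estimates were Uqcrb 0.063, Cox7b -0.022, Atp5s -0.024 and Atp5g2 -0.20. With coding transcript sums, the estimates were Uqcrb 0.11, Cox7b -0.56 and Atp5c1 0.080. With scaling to nuclear protein-coding genes, the estimates were Uqcrb 0.022 and Atp5c1 0.002. With transcript sums, the estimate was Cox7b -0.14. Without a filter, the estimate was Uqcrc2 -0.007. With technical replicates at equal depth, the estimate was Uqcrc2 -0.002. With replicates left out, estimates ran from -0.27 to 0.28 for Uqcrb, -0.087 to 0.14 for Uqcrc2, -0.12 to 0.18 for Cox7b, -1.02 to 5.29 for the second Atp5o row, -0.40 to 0.001 for Ndufv1, -0.23 to 0.28 for Atp5g2 and -0.33 to 0.018 for Atp5g3. The cause of these changes was not tested. The corrections for GC content alone and length alone, and those that leave out replicate 1 at 5 mM together with replicate 2 at 25 mM or with the correction, were chosen after seeing the data. Depth limits the values of Cox6a2, Cox7a1 and the second Atp5o row, which lay near the level of 3 counts in some replicates.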
